A study of Homo sapiens with 12 samples.

Results

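The genes described here encode the basal transcription machinery: the subunits of the RNA polymerases, the general transcription factors, the TBP-associated factors (TAFs) and the Mediator complex. They were taken by symbol alone, as every symbol that starts with POLR, GTF2 or GTF3 or that has MED or TAF followed by a digit. The rule used no measured value and found 135 of the 22784 symbols in the expression table. Of these, 39 were POLR, 28 GTF2, 8 GTF3, 34 MED and 26 TAF symbols. The annotation gave 112 of the 135 as protein-coding, and the others were long noncoding RNAs, pseudogenes and a readthrough symbol. By role, 113 symbols, including the long noncoding RNA POLR2J4, fell into 17 lists, and 22 noncoding or readthrough symbols stood outside them.

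RNA-seq of total RNA was performed on SK-UT-1, an established human line grown from a leiomyosarcoma of the uterus. Cultures received DMSO as vehicle, JQ1 at 5 µM or I-BET 762 at 5 µM for 48 h, and the labels name no engineered allele. JQ1, a thienotriazolodiazepine, and I-BET 762, a benzodiazepine, both block the binding of BET bromodomains to acetylated lysine. The analysis covered 3 DMSO libraries (numbers 13 to 15), 4 JQ1 libraries (17 to 20) and 3 I-BET 762 libraries (21 to 23). The libraries DMSO 16 and I-BET 762 24 had no values in the expression table and were not analysed. All libraries came from the same cell line, and whether replicates were separate cultures is not stated. The p-values therefore measure the spread between these libraries, which may be technical.

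Transcription of a protein-coding gene starts when TFIID, made of the TATA-binding protein TBP and its TAFs, settles on the promoter with TFIIA and TFIIB, after which RNA polymerase II with TFIIF, TFIIE and TFIIH completes the preinitiation complex. Mediator, built from a head, a middle, a tail and a separable kinase module, connects DNA-bound activators with that complex. RNA polymerase I makes the large ribosomal RNA precursor with the help of SL1, and RNA polymerase III makes transfer RNAs and 5S RNA with TFIIIA, TFIIIB and TFIIIC. The BET family binds acetylated histones, and the kinase CDK9 of P-TEFb releases paused polymerase.

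All values are normalized counts, that is, reads per gene divided by the size factor of the library. Between 35564586 and 39658989 reads per library lay on genes, and a count of 0 allows up to 3 reads, or 2.73 to 3.30 normalized counts, a limit that covers counting error only. The label of the cell line was checked against marker genes. The smooth muscle markers ACTA2, TAGLN, CNN1, DES, SMTN, CALD1 and LMOD1 were all detected in DMSO, and MYH11 was absent from the expression table. The sum of these 7 markers was 20500 to 21136 in DMSO, 10661 to 11269 with JQ1 and 11822 to 12374 with I-BET 762. SMTN did not fall, at 2132 to 2573, 2343 to 2885 and 2568 to 2740 in the same order. DES fell from 187 to 188 in DMSO to 2.18 to 14.2 with JQ1, which reaches under the limit of a count of 0. Of 3 mesenchymal markers, VIM stood at 110805 to 119350 in DMSO, 150131 to 161468 with JQ1 and 123919 to 126882 with I-BET 762. FN1 was low and also higher with the inhibitors, at 38.8 to 64.6, 73.6 to 146 and 83.6 to 100. COL1A1 was lower, at 132 to 217, 9.79 to 24.3 and 35.4 to 39.1. The 3 endothelial markers summed to 7.40 at most, and the 2 leukocyte markers to 4.01 at most, with CDH5 and PTPRC at or under the limit of a count of 0 in every library. The summed value of 5 epithelial markers was 1212 to 1271 in DMSO and 497 to 602 with the inhibitors. The summed muscle and epithelial markers and the mesenchymal markers thus moved with the treatment, and their part in the results below was not tested. In bulk RNA, a change in the share of cells in some state and a change in RNA per cell cannot be told apart.

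To show the control regions of the genes that moved most, the promoters of the 6 protein-coding genes whose level changed by over 2-fold with JQ1 are printed here. POLR2A, GTF2B and TAF3 rose, whereas GTF3C6, MED24 and MED12 fell. Each run spans 250 bases before to 50 bases after the RefSeq start of the gene on GRCh38.p14, written 5′ to 3′ on the strand of the gene. Capitals mark matches, on either strand, to a TATA box (TATAAA), an E box (CACGTG), an ETS core (CCGGAAG, which appears as CTTCCGG when it lies on the other strand) or a cAMP response element (TGACGTCA).
POLR2A: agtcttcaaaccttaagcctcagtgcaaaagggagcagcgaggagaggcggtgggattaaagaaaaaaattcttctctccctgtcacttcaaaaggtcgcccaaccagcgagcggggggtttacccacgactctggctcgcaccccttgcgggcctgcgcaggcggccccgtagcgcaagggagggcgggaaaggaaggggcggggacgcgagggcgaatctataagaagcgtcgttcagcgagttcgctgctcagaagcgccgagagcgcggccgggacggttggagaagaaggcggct
GTF2B: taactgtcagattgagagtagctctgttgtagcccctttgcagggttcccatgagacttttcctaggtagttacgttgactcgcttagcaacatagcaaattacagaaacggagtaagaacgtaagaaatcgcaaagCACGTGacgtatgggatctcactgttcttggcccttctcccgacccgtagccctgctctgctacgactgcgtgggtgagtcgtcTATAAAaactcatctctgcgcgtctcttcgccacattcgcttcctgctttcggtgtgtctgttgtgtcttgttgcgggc
TAF3: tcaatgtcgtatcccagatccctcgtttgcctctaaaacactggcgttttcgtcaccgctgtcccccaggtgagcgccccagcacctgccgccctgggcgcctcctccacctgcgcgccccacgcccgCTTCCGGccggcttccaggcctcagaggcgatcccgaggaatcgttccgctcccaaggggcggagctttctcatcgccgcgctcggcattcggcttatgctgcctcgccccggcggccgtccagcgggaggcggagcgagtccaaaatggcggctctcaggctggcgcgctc
GTF3C6: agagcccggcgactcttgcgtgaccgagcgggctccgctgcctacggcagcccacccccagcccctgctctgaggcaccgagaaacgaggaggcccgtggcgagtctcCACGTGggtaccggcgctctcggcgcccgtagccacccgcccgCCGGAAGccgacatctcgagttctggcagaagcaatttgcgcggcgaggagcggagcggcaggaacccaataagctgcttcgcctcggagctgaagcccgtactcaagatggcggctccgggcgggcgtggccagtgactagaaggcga
MED24: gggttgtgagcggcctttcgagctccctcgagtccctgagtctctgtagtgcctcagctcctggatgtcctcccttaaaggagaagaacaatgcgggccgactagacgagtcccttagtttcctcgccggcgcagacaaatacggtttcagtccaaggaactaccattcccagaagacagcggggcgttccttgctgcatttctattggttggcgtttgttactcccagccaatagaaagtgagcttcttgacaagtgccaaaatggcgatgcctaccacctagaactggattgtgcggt
MED12: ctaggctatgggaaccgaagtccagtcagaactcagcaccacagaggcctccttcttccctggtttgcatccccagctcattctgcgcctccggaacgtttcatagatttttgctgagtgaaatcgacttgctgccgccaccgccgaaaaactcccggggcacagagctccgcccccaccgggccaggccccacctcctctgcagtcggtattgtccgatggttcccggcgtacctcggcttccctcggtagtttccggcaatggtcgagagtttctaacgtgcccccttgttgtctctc
These windows lie at chr17:7484116-7484415 on the plus strand (POLR2A), chr1:88891518-88891817 on the minus strand (GTF2B), chr10:7818255-7818554 on the plus strand (TAF3), chr6:110958456-110958755 on the plus strand (GTF3C6), chr17:40054359-40054658 on the minus strand (MED24) and chrX:71118346-71118645 on the plus strand (MED12). GTF2B held a TATA box that begins at base -29 relative to the start, and an E box at -113. GTF3C6 held an E box at -142 and an ETS core at -99, and TAF3 held an ETS core at -122. POLR2A, MED24 and MED12 held none of the 4 motifs in this window. The promoter table matched 93 of the 135 symbols, of which 87 were tested for expression. An ETS core was present in 41 of the 93 (44.1%) and in 10.7% of all 27305 promoters of that table, and in 47.1% of the 87 against 18.9% of the promoters of 11244 tested genes. For the E box the shares were 18.3% of the 93 and 7.43% of all promoters, and for the cAMP response element 5.38% and 1.98%. Among tested genes they were 19.5% and 9.96% for the E box, and 4.60% and 3.22% for the cAMP response element. The TATA box was present in 7.53% of the 93 and in 12.0% of all promoters, but in 8.05% and 5.64% once only tested genes were counted. The median GC content was 60.0% in the 93 promoters and 58.3% in all, and the median number of CG dinucleotides was 25 and 14. Of the genes that rose with JQ1 and had a promoter in the table, 7 of 18 held an ETS core and 5 of 18 an E box. Of those that fell, 2 of 5 held an ETS core and the same 2, GTF3C6 and TAF1A-AS1, an E box. A match is a description of the letters, and binding was not measured.

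Both inhibitors changed the level of genes of the transcription machinery in both directions. GTF2B, POLR2A, TAF3, TAF12 and MED20 were among those that rose with both, and GTF3C6, MED24 and GTF2IRD1 fell with both. Of the 135 symbols, 116 passed the filter of 10 normalized counts in 3 libraries and were tested with limma. A DEG had to pass both thresholds, 0.05 on the adjusted p-value and 1.5 on the fold change. Upon JQ1 treatment, 19 of the 116 (16.4%) rose, against 13.3% of all 14839 tested genes, and 8 (6.90%) fell, against 22.8%. Upon I-BET 762 treatment, 11 (9.48%) rose, against 8.96% of all genes, and 4 (3.45%) fell, against 17.9%. The share that rose was thus close to that of all genes, and the share that fell was below it.

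Most changes were small. At an adjusted p-value under 0.05 alone, 55 of the 116 (47.4%) were higher with JQ1, against 36.0% of all genes, and 27 (23.3%) were lower, against 35.6%. With I-BET 762, 46 (39.7%) were higher, against 29.9%, and 23 (19.8%) were lower, against 31.3%. The median log2 fold change of the 116 was 0.13 with JQ1 and 0.11 with I-BET 762, and that of all genes was 0.01 and -0.00. The median size of the change, whatever its sign, was 0.32 with JQ1, against 0.43 over all genes, and 0.27 with I-BET 762, against 0.33. Both comparisons use the same DMSO libraries, so similar values in both are not independent of each other.

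**Figure D1:**
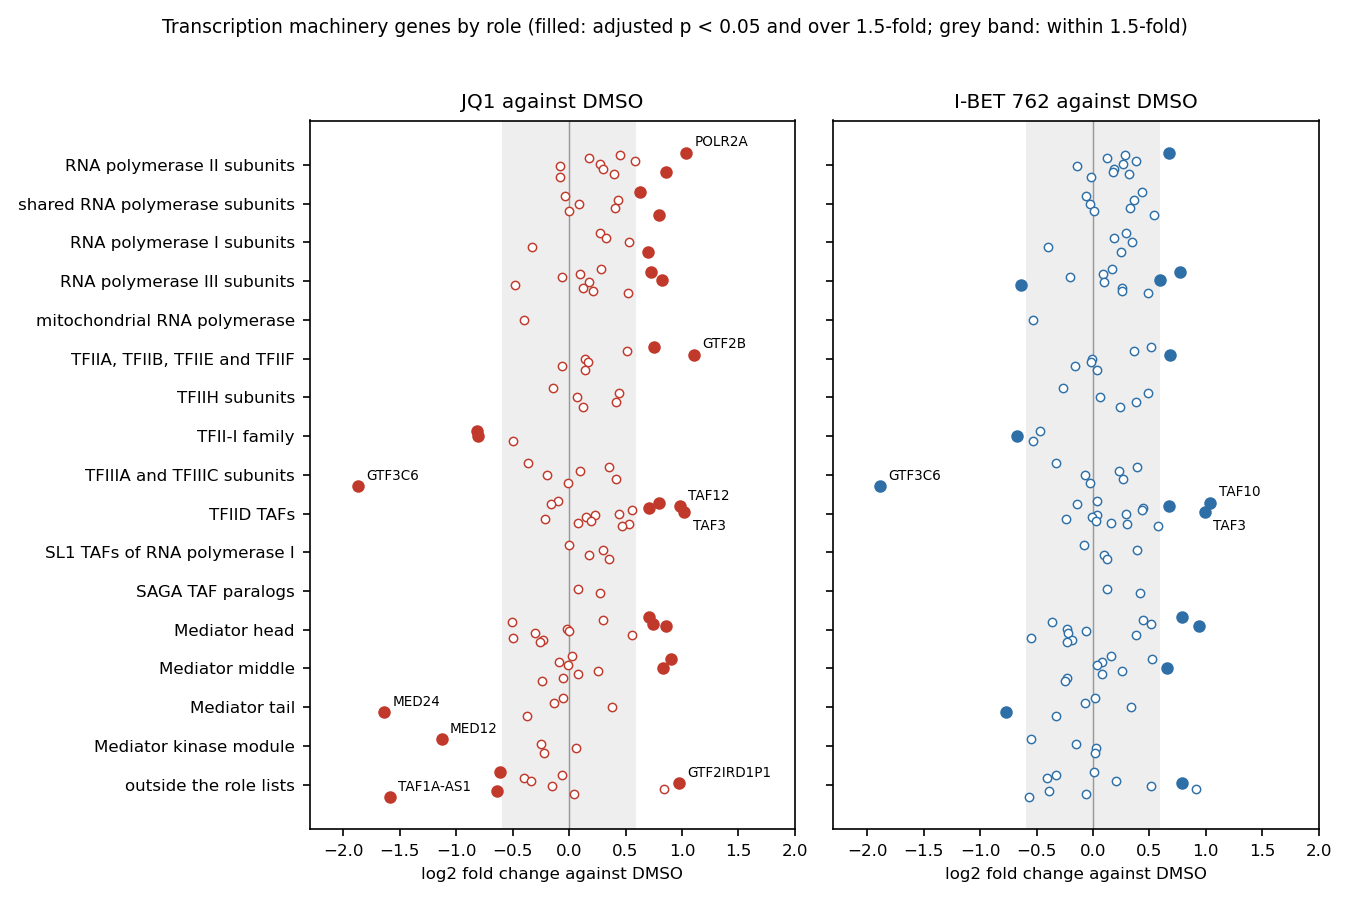
Log2 fold change (x axis) of the 116 tested transcription machinery genes, grouped by role (y axis), with JQ1 (left) and I-BET 762 (right) against DMSO. Each point is a gene, filled where it was a DEG, and most points lie inside the grey band of changes within 1.5-fold, while GTF3C6 stands at -1.87 and -1.89.

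The balance between rises and falls depended on how the libraries were put on a common scale. In units of 1e6 normalized counts, the totals were 39.22 to 41.85 in the JQ1 libraries, 37.2 to 37.83 in the I-BET 762 libraries and 34.44 to 35.68 in the DMSO libraries. When every library was rescaled to the same total, the median of all genes moved by -0.18 with JQ1 and by -0.10 with I-BET 762. With equal totals, 11 of the 116 rose and 12 fell with JQ1, and 6 rose and 8 fell with I-BET 762. Of all genes, 8.24% then rose and 28.4% fell with JQ1, and 6.7% rose and 20.6% fell with I-BET 762. The split of all genes moved as well, and falls made up 63.1% of the DEGs with JQ1 and 77.5% after rescaling. With I-BET 762 these shares were 66.7% and 75.5%. The calls that were lost with equal totals were those of GTF2A1, MED11, MED19, POLR1C, POLR1G, POLR2J2, POLR3B and TAF13 with JQ1, and those of GTF2B, MED26, POLR2A, POLR3E and TAF12 with I-BET 762. Their log2 fold changes were then 0.44 to 0.68 and 0.50 to 0.58. Calls that were gained were falls, those of GTF2IRD2B, MED18, MED30 and POLR3G with JQ1 (-0.66 to -0.70) and those of GTF2IRD2B, MED12, MED30 and POLRMT with I-BET 762 (-0.62 to -0.65). Genes with small differences changed sign, 21 of the 116 with JQ1 and 15 with I-BET 762, none of them a DEG.

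**Figure D2:**
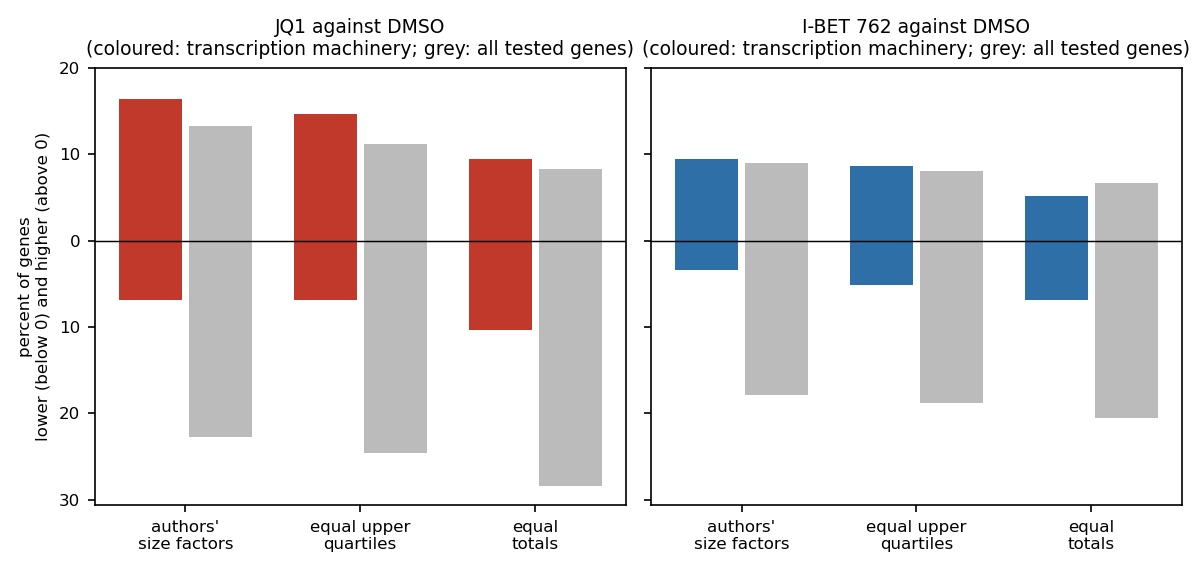
Percentage of genes that rose (above 0) or fell (below 0) past both thresholds, for the 116 transcription machinery genes (coloured) and all 14839 tested genes (grey), under 3 ways to scale the libraries. The coloured bars below 0 stay shorter than the grey ones under all 3 scalings, and with equal totals 12 of the 116 fell with JQ1 and 8 with I-BET 762.

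Among the subunits particular to RNA polymerase II, 10 of 11 symbols were tested. Of these, 2 rose and none fell with JQ1, and 1 rose and none fell with I-BET 762. Among all tested genes, 13.3% rose and 22.8% fell with JQ1, and 8.96% rose and 17.9% fell with I-BET 762. The median log2 fold change of the list was 0.35 with JQ1 and 0.23 with I-BET 762. POLR2A encodes the largest subunit, which carries the catalytic centre and the C-terminal repeat domain, and it spans chr17:7484366-7514616 on hg38. Its normalized count was 4872, 3741 and 3717 in the DMSO libraries, 7477, 7355, 9922 and 8946 in the JQ1 libraries, and 6676, 6251 and 6547 in the I-BET 762 libraries. The 3 groups did not overlap, with the JQ1 libraries highest. POLR2A rose 2.05-fold with JQ1 (log2 fold change 1.04 ± 0.10 SE, adjusted p = 1.57e-07) and 1.59-fold with I-BET 762 (0.67 ± 0.11, adjusted p = 6.28e-05). POLR2B encodes the other large subunit, and its level per kilobase of exon was the highest of the list in DMSO. Its normalized count was 13091 ± 740 (SD, n = 3) in DMSO, 17897 ± 1749 (n = 4) with JQ1 and 15902 ± 270 (n = 3) with I-BET 762. The differences, 0.45 and 0.28 on the log2 scale, had adjusted p-values of 1.18e-05 and 0.00218 but lay under 1.5-fold. POLR2D, which forms the stalk of the enzyme with POLR2G, had a log2 fold change of 0.58 with JQ1, just under the threshold. POLR2J2, a near copy of POLR2J, was the other call with JQ1, at 23.0 to 38.5 normalized counts against 19.2 ± 10.4 (n = 3) in DMSO. The libraries of these groups overlapped, 92.6% of its exon stretches of 75 bases had an exact copy elsewhere in the genome, and its call was lost when any 1 of DMSO 14, DMSO 15, JQ1 17, JQ1 18 or JQ1 20 was left out, with log2 fold changes of 0.44 to 0.89 and adjusted p-values over the threshold.

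Among the 7 subunits shared between polymerases, 2 rose with JQ1, none rose with I-BET 762 and none fell with either. Rises made up 13.3% and falls 22.8% of all tested genes with JQ1, and 8.96% and 17.9% with I-BET 762. POLR2L, a small subunit common to RNA polymerases I, II and III, had the highest level per kilobase of this list. It stood at 3429, 3435 and 3159 normalized counts in DMSO, at 5603 to 6232 in the JQ1 libraries and at 4822 to 4885 in the I-BET 762 libraries, again without overlap. It rose 1.75-fold with JQ1 (0.80 ± 0.05, adjusted p = 6.58e-10). With I-BET 762 the ratio was 1.45 (adjusted p = 3.16e-07), under the fold threshold. POLR1C, a subunit common to RNA polymerases I and III, rose from 981 ± 51.9 (n = 3) to 1520 ± 156 (n = 4) normalized counts with JQ1, and stood at 1316 ± 42.9 (n = 3) with I-BET 762. Without JQ1 18 its log2 fold change was 0.57, below the fold threshold. POLR2K, POLR2F and POLR1D had log2 fold changes between -0.06 and 0.09 in the comparisons with DMSO and none had an adjusted p-value under 0.05.

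Of the RNA polymerase I subunits, 5 of 6 were tested and POLR1G, a subunit particular to this enzyme, rose with JQ1. Its normalized count was 1129, 1206 and 1217 in DMSO, 1846 to 2028 with JQ1 and 1389 to 1423 with I-BET 762. Here the JQ1 libraries stood clearly above the I-BET 762 libraries. The rise with JQ1 was 1.63-fold (0.70 ± 0.05, adjusted p = 7.41e-09), against 1.19 with I-BET 762. Of the exon bases of POLR1G, 49.8% overlap ERCC1 on the opposite strand, and the setting for strand in the counting is not stated. POLR1A, the catalytic subunit, had normalized counts of 5982 ± 449 (n = 3) in DMSO, 7264 ± 922 (n = 4) with JQ1 and 7284 ± 95.9 (n = 3) with I-BET 762. Its log2 fold changes of 0.27 and 0.29 had adjusted p-values of 0.0045 and 0.00657 and were under 1.5-fold. POLR1F was lower, at 4308 ± 442 with JQ1 and 4079 ± 91.1 with I-BET 762 against 5393 ± 253 in DMSO, also under 1.5-fold.

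All 10 RNA polymerase III subunits were tested, of which 2 rose and none fell with JQ1, and 2 rose and 1 fell with I-BET 762. Over all tested genes, 13.3% rose and 22.8% fell with JQ1, and 8.96% rose and 17.9% fell with I-BET 762. POLR3B, which shares the catalytic site with POLR3A, stood at 1135, 1260 and 1255 normalized counts in DMSO, at 1893, 2185, 2048 and 1952 with JQ1 and at 1963, 2153 and 2094 with I-BET 762. The libraries of the inhibitors overlapped each other and lay above all DMSO libraries. POLR3B rose 1.66-fold with JQ1 (0.73 ± 0.06, adjusted p = 2.48e-08) and 1.70-fold with I-BET 762 (0.77 ± 0.07, adjusted p = 6.62e-08). POLR3E, a subunit particular to this enzyme, stood at 1612 to 1713 in DMSO and rose to 2751 to 3085 with JQ1, a 1.77-fold change. It stood at 2454 to 2596 with I-BET 762, a 1.51-fold rise that fell under the fold threshold without DMSO 15 or I-BET 762 23 (0.57 on the log2 scale for either). POLR3A itself was at 2384 ± 70.4 (n = 3) in DMSO and at 2891 ± 78.7 (n = 4) and 2679 ± 82.2 (n = 3) with JQ1 and I-BET 762, differences of 0.28 and 0.17 on the log2 scale with adjusted p-values of 5.42e-05 and 0.00794.

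The paralogs POLR3G and POLR3GL are alternative subunits of RNA polymerase III, of which POLR3G is known as the form of stem and tumour cells. POLR3G fell from 193, 219 and 232 normalized counts in DMSO to 121, 175 and 120 with I-BET 762 (-0.64 ± 0.15, adjusted p = 0.00144), and the call was lost without I-BET 762 21 (-0.56) or I-BET 762 23 (-0.55). With JQ1 it stood at 140 to 173 (-0.48 ± 0.14, adjusted p = 0.00573), under 1.5-fold. POLR3GL stood at 551 to 661 in DMSO, 547 to 837 with JQ1 and 720 to 750 with I-BET 762, and neither difference had an adjusted p-value under 0.05. Per kilobase of exon, POLR3G made up 13.5% to 13.6% of the sum of the pair in DMSO, 8.51% to 11.2% with JQ1 and 6.90% to 9.53% with I-BET 762.

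POLRMT, the RNA polymerase of the mitochondria, was lower with both inhibitors but under the fold threshold. It stood at 1621, 1600 and 1605 normalized counts in DMSO, at 1390, 997, 1487 and 1081 with JQ1 and at 1145, 1090 and 1110 with I-BET 762. The JQ1 libraries were spread widely, and all 7 treated libraries lay below the DMSO libraries. On the log2 scale POLRMT differed by -0.40 ± 0.11 with JQ1 (adjusted p = 0.00308) and by -0.53 ± 0.11 with I-BET 762 (adjusted p = 7.35e-04).

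Of TFIIA, TFIIB, TFIIE and TFIIF, 7 of 8 symbols were tested, of which 2 rose with JQ1, 1 rose with I-BET 762 and none fell. Over all tested genes, rises were 13.3% and falls 22.8% with JQ1, and 8.96% and 17.9% with I-BET 762. GTF2B encodes TFIIB, which bridges TBP at the promoter to RNA polymerase II, and it had the largest rise of all 116 genes with JQ1. Its normalized count was 1406, 1503 and 1474 in DMSO, 3022, 3773, 2944 and 2977 with JQ1 and 2332, 2506 and 2191 with I-BET 762. The 3 groups were separate, and JQ1 18 stood above the other JQ1 libraries. GTF2B rose 2.16-fold with JQ1 (1.11 ± 0.08, adjusted p = 2.53e-09) and 1.60-fold with I-BET 762 (0.68 ± 0.08, adjusted p = 3.20e-06). GTF2A1, the large subunit of TFIIA, stood at 4054 to 4196 in DMSO, 6591 to 7207 with JQ1 and 5627 to 6089 with I-BET 762. It rose 1.68-fold with JQ1 (0.75 ± 0.05, adjusted p = 6.25e-10) and was 1.43 times the DMSO level with I-BET 762, under the threshold. GTF2F1, the large subunit of TFIIF and the most abundant per kilobase in this list, stood at 3805 to 3901, 3376 to 4061 and 3423 to 3538 in the 3 groups. Of its differences only that with I-BET 762 (-0.16) had an adjusted p-value under 0.05, at 0.0373.

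No subunit of TFIIH was a DEG among the 5 tested. GTF2H3 was higher, at 3181 ± 177 (n = 4) with JQ1 and 3089 ± 63.8 (n = 3) with I-BET 762 against 2379 ± 132 (n = 3), or 0.42 and 0.38 on the log2 scale. GTF2H2 had similar log2 fold changes of 0.44 and 0.49, but 85.5% of its exon stretches had an exact copy elsewhere in the primary genome, as had 81.4% of those of GTF2H2C, so the levels of both genes are uncertain. GTF2H2C stood at 232 ± 36.8, 243 ± 35.7 and 240 ± 7.96 normalized counts in the 3 groups.

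All 3 tested members of the TFII-I family were lower with both inhibitors at adjusted p-values under 0.05. By that rule, 35.6% of all tested genes were lower with JQ1 and 31.3% with I-BET 762. GTF2IRD1, a paralog of GTF2I that binds DNA through repeated domains, spans chr7:74453790-74602605. It stood at 1267, 1356 and 1378 normalized counts in DMSO, at 750 to 764 with JQ1 and at 813 to 852 with I-BET 762. The 4 JQ1 libraries lay close together, below all libraries of the other groups. GTF2IRD1 fell with JQ1 (-0.81 ± 0.06, adjusted p = 1.98e-09) and with I-BET 762 (-0.67 ± 0.06, adjusted p = 8.89e-08). GTF2I, the transcription factor TFII-I, fell from 3409, 3469 and 3739 in DMSO to 2121, 1838, 2067 and 2012 with JQ1 (-0.82 ± 0.06, adjusted p = 3.14e-09). It stood at 2433, 2568 and 2665 with I-BET 762 (-0.47 ± 0.06, adjusted p = 7.33e-06), under 1.5-fold. For GTF2I, 72.7% of the exon stretches have an exact copy elsewhere in the genome, and the pseudogenes GTF2IP1 and GTF2IP4 are nearly all copied, at 98.8% and 94.4%. GTF2IRD1 has no such copies. GTF2IRD2B, for which the share is 87.5%, stood at 62.0 to 85.1 in DMSO, 40.3 to 74.7 with JQ1 and 48.2 to 56.1 with I-BET 762, with adjusted p-values of 0.0352 and 0.0445 and changes under 1.5-fold.

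GTF3C6 showed the largest fall of the transcription machinery with either inhibitor. It encodes a small subunit of TFIIIC, the factor that recognises the internal promoters of transfer RNA genes, and spans chr6:110958706-110967890. Per kilobase of exon it had the highest mean of all these genes in DMSO, at 3223 ± 222 (n = 3) normalized counts per kilobase, which overlapped POLR2L within the SD. Its normalized count was 2733, 3070 and 3101 in DMSO, 819, 888, 827 and 712 with JQ1 and 747, 845 and 801 with I-BET 762. The treated libraries overlapped each other, far below the DMSO libraries. The level fell to 0.27 of that in DMSO with JQ1 (-1.87 ± 0.08, adjusted p = 4.53e-12) and with I-BET 762 (-1.89 ± 0.08, adjusted p = 2.90e-11). No exon of GTF3C6 overlaps another gene, and none of its stretches had an exact copy in the genome. The other 5 TFIIIC subunits and GTF3A, the 5S RNA factor TFIIIA, were no DEGs. GTF3C1, the largest subunit of TFIIIC, was at 7041 ± 243 (n = 3) in DMSO and at 9015 ± 726 (n = 4) and 9241 ± 140 (n = 3) with JQ1 and I-BET 762, whereas GTF3A was at 2221 ± 110, 1727 ± 78.9 and 1768 ± 27.5. Their log2 fold changes were 0.35 and 0.39 for GTF3C1 and -0.36 and -0.33 for GTF3A, all with adjusted p-values under 0.05. Within this list, then, the measured subunits of the same complex moved in both directions.

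**Figure D3:**
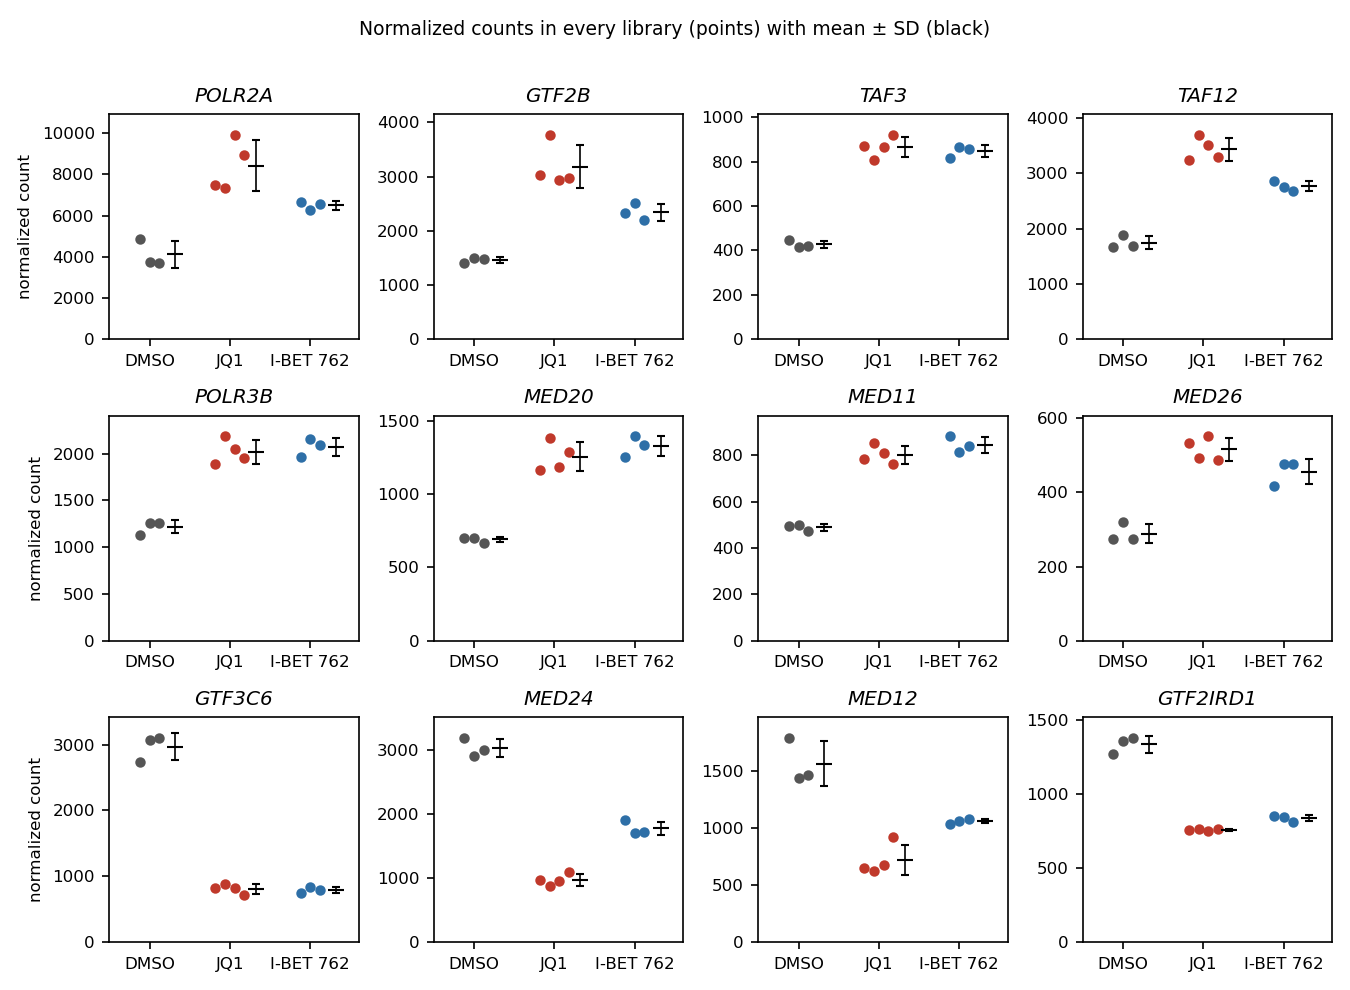
Normalized count (y axes, from 0) of 12 transcription machinery genes in each of 3 DMSO, 4 JQ1 and 3 I-BET 762 libraries (points), with the mean ± SD of each group in black. GTF3C6 lies at 712 to 888 in all treated libraries against 2733 to 3101 in DMSO, whereas MED24 forms 3 separate groups.

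Of 17 TAF symbols of TFIID, 15 were tested and none fell. With JQ1, 4 of the 15 rose (TAF3, TAF10, TAF12 and TAF13), and with I-BET 762, 3 rose (TAF3, TAF10 and TAF12). Of all tested genes, 13.3% rose with JQ1 and 8.96% with I-BET 762. With equal totals, the call of TAF13 with JQ1 (0.52 on the log2 scale) and that of TAF12 with I-BET 762 (0.57) were lost. The median log2 fold change of the 15 was 0.44 with JQ1 and 0.29 with I-BET 762. TAF3, which reads trimethylated lysine 4 of histone H3, spans chr10:7818497-8016631. It stood at 446, 415 and 421 normalized counts in DMSO, at 870, 807, 865 and 921 with JQ1 and at 818, 866 and 856 with I-BET 762. TAF3 rose 2.02-fold with JQ1 (1.02 ± 0.06, adjusted p = 8.99e-10) and 1.98-fold with I-BET 762 (0.99 ± 0.07, adjusted p = 7.13e-09), and the libraries of the inhibitors overlapped. TAF12, a histone-fold subunit shared by TFIID and the SAGA coactivator, stood at 1662 to 1883 in DMSO, 3239 to 3698 with JQ1 and 2685 to 2864 with I-BET 762, with no overlap between groups. It rose 1.97-fold (0.98 ± 0.06, adjusted p = 4.86e-10) and 1.59-fold (0.67 ± 0.06, adjusted p = 1.99e-07). TAF13, the histone-fold partner of TAF11, rose from 2188 ± 179 (n = 3) to 3579 ± 321 (n = 4) with JQ1 and was at 2964 ± 47.1 (n = 3) with I-BET 762. TAF11 itself stood at 2231 ± 162, 1992 ± 108 and 2029 ± 73.3.

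TAF10, another subunit shared by TFIID and SAGA, was scarce. It stood at 98.8, 114 and 92.8 normalized counts in DMSO, at 218, 150, 185 and 164 with JQ1 and at 206, 205 and 218 with I-BET 762. All treated libraries lay above the DMSO libraries, with rises of 1.74-fold (0.80 ± 0.13, adjusted p = 4.05e-05) and 2.05-fold (1.04 ± 0.14, adjusted p = 8.92e-06). Of the exon bases of TAF10, 40.8% overlap ILK on the opposite strand and 17.6% overlap other genes on its own strand, and the part of these overlaps in the result was not tested. TAF1, the largest subunit, stood at 3756 to 3857 in DMSO, 3416 to 3692 with JQ1 (-0.10, adjusted p = 0.0392) and 3861 to 3956 with I-BET 762 (0.04, adjusted p = 0.466). TAF7, the most abundant per kilobase in this list, stood at 5857 ± 389 (n = 3), 6666 ± 563 (n = 4) and 5953 ± 159 (n = 3). TAF2 had a log2 fold change of 0.56 with JQ1 and 0.43 with I-BET 762, under the threshold. TBP, the protein that the TAFs surround, carries none of the prefixes and stood at 925 ± 58.5, 913 ± 24.3 and 874 ± 18.0, and neither difference had an adjusted p-value under 0.05 (0.81 and 0.284).

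The 4 TAFs of SL1, the promoter factor of RNA polymerase I, included no DEG. TAF1D was the most abundant per kilobase of them, at 4800 ± 211 (n = 3) in DMSO, 6115 ± 319 (n = 4) with JQ1 and 5204 ± 144 (n = 3) with I-BET 762. The differences were 0.35 (adjusted p = 1.30e-05) and 0.12 (adjusted p = 0.0718) on the log2 scale. TAF5L and TAF6L, the SAGA counterparts of TAF5 and TAF6, were no DEGs either. TAF6L stood at 817 to 928 in DMSO, 981 to 1079 with JQ1 and 1129 to 1168 with I-BET 762, and TAF6 at 1816 to 2283, 1516 to 2027 and 1637 to 1695. Per kilobase, TAF6 thus made up 48.9% to 51.4% of the sum of the pair in DMSO, 37.7% to 46.6% with JQ1 and 38.2% to 38.9% with I-BET 762. TAF5 made up 53.8% to 56.6%, 54.3% to 57.8% and 51.7% to 54.2% of its pair with TAF5L, so these shares overlapped between DMSO and each inhibitor.

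In the Mediator head, which contacts RNA polymerase II, all 12 subunits were tested, of which 3 rose with JQ1 and 2 with I-BET 762, and none fell. Among all tested genes, 13.3% rose and 22.8% fell with JQ1, and 8.96% rose and 17.9% fell with I-BET 762. At an adjusted p-value under 0.05 alone the head was mixed, with 5 subunits higher and 5 lower with JQ1. The shares of all tested genes were then 36.0% and 35.6%. MED20 stood at 699, 704 and 668 normalized counts in DMSO, at 1166, 1385, 1185 and 1288 with JQ1 and at 1254, 1394 and 1333 with I-BET 762. The inhibitors overlapped, and MED20 rose 1.81-fold with JQ1 (0.86 ± 0.07, adjusted p = 1.06e-08) and 1.92-fold with I-BET 762 (0.94 ± 0.07, adjusted p = 1.87e-08). MED11 rose from 472 to 498 in DMSO to 763 to 851 with JQ1 (1.64-fold) and to 815 to 882 with I-BET 762 (1.73-fold). Of the exon bases of MED11, 36.3% overlap genes on the opposite strand, and of those of MED20, 25.3% overlap genes on its own strand. MED19, another subunit of the head, rose from 817 ± 42.5 (n = 3) to 1375 ± 169 (n = 4) with JQ1 and stood at 1165 ± 44.1 (n = 3) with I-BET 762. In the other direction, MED18 (-0.51) and MED30 (-0.50) were lower with JQ1, and MED30 (-0.55) with I-BET 762, with adjusted p-values under 0.05 but under 1.5-fold. With equal totals MED18 (-0.70) and MED30 (-0.68) became falls with JQ1. MED30 became a fall with I-BET 762 under equal totals (-0.65), under equal upper quartiles (-0.59) and without DMSO 13 (-0.63) or I-BET 762 22 (-0.61). MED8, the most abundant per kilobase of the head, stood at 1681 ± 31.1 (n = 3), 1405 ± 117 (n = 4) and 1438 ± 41.2 (n = 3).

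In the Mediator middle, 9 subunits were tested, of which 2 rose with JQ1 (MED10 and MED26) and 1 with I-BET 762 (MED26). Rises made up 13.3% of all tested genes with JQ1 and 8.96% with I-BET 762. MED10 stood at 474 to 503 in DMSO, 831 to 974 with JQ1 and 695 to 707 with I-BET 762, and it rose 1.87-fold with JQ1 (0.90 ± 0.07, adjusted p = 5.10e-09). MED26, a subunit known to recruit elongation factors to the polymerase, stood at 275, 319 and 274 in DMSO, 533, 493, 551 and 488 with JQ1 and 416, 476 and 475 with I-BET 762. It rose 1.78-fold with JQ1 (0.83 ± 0.09, adjusted p = 2.55e-07) and 1.57-fold with I-BET 762 (0.66 ± 0.09, adjusted p = 1.36e-05), and 44.1% of its exon bases overlap other genes on the same strand. The scaffold subunit MED14 stood at 5110 to 5211, 4456 to 4982 and 5390 to 5485 in the 3 groups, with adjusted p-values of 0.0843 and 0.178. MED1, the subunit through which nuclear receptors contact Mediator, stood at 5881 ± 195 (n = 3), 6028 ± 361 (n = 4) and 6565 ± 224 (n = 3), with log2 fold changes of 0.03 and 0.16.

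With the authors' scaling, the only Mediator subunits that fell past both thresholds were MED24 of the tail, with both inhibitors, and MED12 of the kinase module, with JQ1. MED24, a tail subunit that spans chr17:40019097-40061215, was the only DEG of 5 in the tail. It stood at 3188, 2902 and 2998 normalized counts in DMSO, at 968, 872, 964 and 1099 with JQ1 and at 1901, 1713 and 1721 with I-BET 762. The 3 groups were far apart, with I-BET 762 between JQ1 and DMSO. MED24 fell to 0.32 of the DMSO level with JQ1 (-1.64 ± 0.07, adjusted p = 1.02e-11) and to 0.59 with I-BET 762 (-0.77 ± 0.08, adjusted p = 3.20e-07). The other tail subunits lay between -0.37 (MED25) and 0.38 (MED23) with JQ1.

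MED12, which activates the kinase of the module and is known for mutations in uterine leiomyomas, spans chrX:71118543-71144103. Its normalized count was 1794, 1442 and 1464 in DMSO, 657, 629, 679 and 921 with JQ1 and 1041, 1068 and 1078 with I-BET 762. Again the groups did not overlap, and JQ1 20 stood above the other JQ1 libraries. MED12 fell to 0.46 of the DMSO level with JQ1 (-1.13 ± 0.11, adjusted p = 1.37e-07). With I-BET 762 the ratio was 0.68 (-0.55 ± 0.12, adjusted p = 6.93e-04), just short of the fold threshold, which it passed under both rescalings and without DMSO 14 or DMSO 15 (-0.59 to -0.65). MED13, the link between the module and the core, stood at 8835 ± 179 (n = 3), 9239 ± 543 (n = 4) and 9022 ± 118 (n = 3), and MED13L at 12665 ± 742, 10843 ± 453 and 12822 ± 522. Of these differences only that of MED13L with JQ1 (-0.22) had an adjusted p-value under 0.05, at 0.00108. MED12L was scarce at 73.3 ± 7.04, 61.7 ± 8.39 and 66.0 ± 9.37. MED12 made up 94.5% to 94.8% of the pair per kilobase in DMSO, 88.4% to 93.2% with JQ1 and 92.2% to 93.9% with I-BET 762. The kinase partners without a MED symbol were measured too. CCNC, the cyclin of the module, rose from 3622 ± 224 (n = 3) to 6101 ± 605 (n = 4) with JQ1 and 5694 ± 164 (n = 3) with I-BET 762, whereas its kinases CDK8 (0.57 and 0.40) and CDK19 (-0.37 and -0.20) were under 1.5-fold.

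At the same dose and time, the inhibitors could be set against each other directly. They form 1 pair of compounds, and p-values were adjusted over the 14839 tested genes. Of the 116 transcription machinery genes, none was higher with JQ1 than with I-BET 762 past both thresholds, against 1.73% of all genes, and 3 (2.59%) were lower, against 3.59%. At an adjusted p-value under 0.05 alone, 19 (16.4%) were higher with JQ1, against 13.3% of all genes, and 9 (7.76%) were lower, against 14.0%. MED24 was the only protein-coding gene among the 3, at 976 ± 93.7 (n = 4) with JQ1 and 1778 ± 106 (n = 3) with I-BET 762 (-0.87, 95% interval -1.02 to -0.72, adjusted p = 7.31e-07). TAF1A-AS1, an RNA antisense to TAF1A, stood at 4.40, 14.1, 12.0 and 8.11 normalized counts with JQ1, at 18.7, 20.1 and 18.7 with I-BET 762 and at 21.3 to 34.6 in DMSO. GTF2IP1, a pseudogene of GTF2I, stood at 121 to 226 with JQ1 and at 211 to 326 with I-BET 762, which overlap. The calls of TAF1A-AS1 (adjusted p = 0.039) and GTF2IP1 (adjusted p = 0.0457) were each lost in 6 of the 10 fits that left out a library, which for both included each I-BET 762 library in turn.

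Several genes differed between the inhibitors by less than 1.5-fold, at adjusted p-values under 0.05. MED12 was lower with JQ1 than with I-BET 762 by 0.57 on the log2 scale (95% interval -0.81 to -0.34, adjusted p = 0.00127), and without I-BET 762 21 or JQ1 20 it passed the fold threshold, at -0.59 and -0.70. GTF2I was lower with JQ1 by 0.35 (-0.47 to -0.23). On the other side, POLR1G was higher with JQ1 by 0.46 (0.34 to 0.57), GTF2B by 0.43 (0.27 to 0.60), MED10 by 0.39 (0.25 to 0.53) and POLR2A by 0.37 (0.15 to 0.58). For GTF3C6 the difference was 0.02 (-0.14 to 0.18), for TAF3 0.03 (-0.11 to 0.17), for POLR3B -0.04 (-0.17 to 0.09) and for MED20 -0.08 (-0.22 to 0.06). Of the 88 genes with an adjusted p-value of 0.05 or more, 81 had a 95% interval within 1.5-fold in either direction, and 7 had an interval that reached past it. A p-value that misses the threshold does not show that the compounds act alike.

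**Figure D4:**
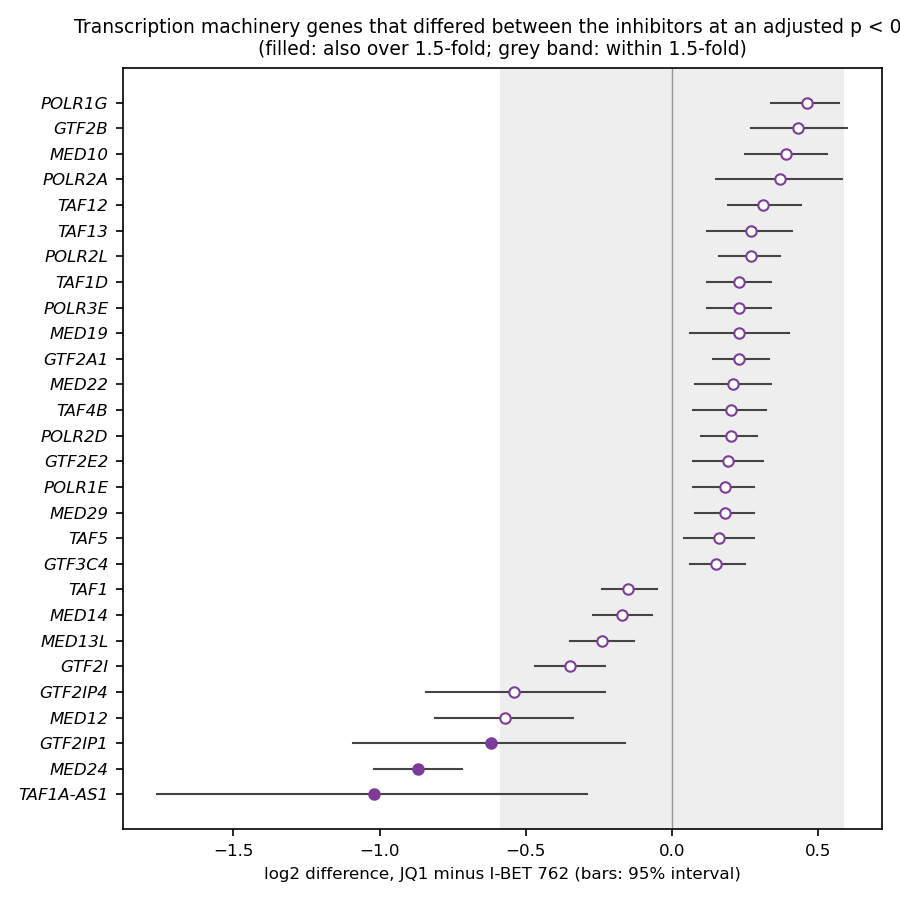
Log2 difference between JQ1 and I-BET 762 (x axis, positive where JQ1 was higher) with its 95% interval for the 28 transcription machinery genes with an adjusted p-value under 0.05 (y axis). Filled points mark the 3 genes that also passed 1.5-fold, and MED24 at -0.87 lies wholly outside the grey band.

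Partners of this machinery that carry none of the prefixes were read from fixed lists. Of all tested genes, 13.3% rose and 22.8% fell with JQ1, and 8.96% rose and 17.9% fell with I-BET 762. Of 13 preinitiation and Mediator partners, 4 rose and none fell with JQ1 and 2 rose with I-BET 762. Among them DRAP1, a subunit of the repressor NC2, rose 0.79 on the log2 scale with JQ1 (from 3581 ± 124, n = 3, to 6205 ± 764, n = 4), and BTAF1, which removes TBP from DNA, rose by 0.71. CDK7, the kinase of TFIIH, was also called with both inhibitors, but its values were 10.7 to 13.9 in DMSO, 14.3, 16.3, 188 and 112 with JQ1 and 17.7, 100 and 100 with I-BET 762, and both calls were lost with limma-voom (adjusted p = 0.11 and 0.0953). The CDK7 call with JQ1 was also lost without any 1 of DMSO 13, 14 or 15 or JQ1 19 or 20 (1.28 to 2.05), and that with I-BET 762 without any 1 of DMSO 13 or 15 or I-BET 762 22 or 23 (1.77 to 2.13). Of 12 tested factors of RNA polymerases I and III, 2 rose (SNAPC2 and CRCP) and 1 fell with JQ1 and none was a DEG with I-BET 762. The fall was that of RRN3, at 21.3, 102 and 448 in DMSO and 15.2 to 26.1 with JQ1, and it was lost without any 1 of DMSO 14 or 15 or JQ1 17, 19 or 20, most clearly without DMSO 15 (-1.11, adjusted p = 0.283). For CDK7 and RRN3, exact copies of exon stretches elsewhere in the genome were not looked for. Of 5 mitochondrial transcription factors none was a DEG, and TFAM, the main one, had log2 fold changes of 0.55 and 0.30.

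Of 28 tested pause release and elongation factors, 4 rose and 2 fell with JQ1, and 3 rose and 1 fell with I-BET 762. The shares of all tested genes were 13.3% and 22.8% with JQ1, and 8.96% and 17.9% with I-BET 762. HEXIM1, the inhibitor of P-TEFb, stood at 1601 to 1641 in DMSO, 4451 to 4898 with JQ1 and 3251 to 3528 with I-BET 762, a rise of 2.90-fold and 2.07-fold. CDK9, the kinase that HEXIM1 restrains, stood at 1678 ± 85.5 (n = 3), 1760 ± 51.9 (n = 4) and 1584 ± 73.7 (n = 3), and neither difference from DMSO had an adjusted p-value under 0.05. Of the others, ELL2 and CTR9 rose with both inhibitors and HEXIM2 fell with both, while MEPCE rose and NELFCD fell with JQ1. The JQ1 libraries of MEPCE were spread, at 718, 330, 565 and 345 normalized counts against 239 to 267 in DMSO, and 61.3% of its exon bases overlap another gene on the same strand. For HEXIM2 and NELFCD, 79.3% and 97.4% of the exon bases overlap genes on the opposite strand, and the part of these overlaps was not tested.

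Outside the role lists, 10 of 22 symbols were tested, of which 1 rose and 3 fell with JQ1 and 1 rose with I-BET 762. Among all tested genes, 13.3% rose and 22.8% fell with JQ1, and 8.96% rose with I-BET 762. The pseudogene GTF2IRD1P1 rose with both, from 24.6 to 41.6 normalized counts in DMSO to 52.0 to 67.5 and 47.2 to 60.0. POLRMTP1 fell with JQ1, from 81.4 to 97.4 to 54.4 to 64.8, as did TAF1A-AS1 (-1.59) and GTF2IP1 (-0.61). The GTF2IP1 libraries of JQ1 and DMSO overlapped, and that call was lost without DMSO 15 (-0.38), JQ1 18 (-0.53) or JQ1 19 (-0.47).

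The 19 symbols that were not tested had at most 13.0 normalized counts in any library, and 6 of them are protein-coding (GTF2A1L, GTF2IRD2, POLR1H, TAF15, TAF1L and TAF7L). GTF2A1L, TAF1L and TAF7L are known as germ cell paralogs of GTF2A1, TAF1 and TAF7, and their highest group means were 0.925, 0.990 and 3.66. TAF15, an RNA-binding protein of the FET family, had group means of 0.954 ± 0.969 (n = 3), 3.40 ± 0.996 (n = 4) and 1.99 ± 1.01 (n = 3). For TAF15, 100% of the exon stretches have an exact copy on alternate contigs of the reference, and for POLR1H 95.8%. The same held for 93.9% of TAF9, at 35.5 ± 5.14 normalized counts in DMSO, and for a large part of TAF4, at 102 ± 8.69, whose paralogs TAF9B and TAF4B stood at 1673 ± 17.6 and 1824 ± 128. Reads with several equal placements are often left uncounted. The sources do not say which alternate contigs were in the index, and the levels of these 4 genes are therefore uncertain.

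Per kilobase of exon, the most abundant genes in DMSO after GTF3C6 were POLR2L at 2967 ± 140 (n = 3), POLR2B at 2222 ± 126 and TAF7 at 1936 ± 129, none of which overlap in mean ± SD. GTF3C6 and POLR2L did overlap. POLR1F at 1366, GTF2F1 at 1345 ± 18.8, POLR2K at 1311 ± 138 and POLR2G at 1303 ± 43.2 followed, and these 4 did not differ beyond their spread. With JQ1 the order at the top changed, to POLR2L at 5185 ± 263 (n = 4), POLR2B at 3038 ± 297 and TAF7 at 2203 ± 186 with GTF3C6 at 881 ± 79.4. The exon length counts every annotated exon of a gene, so a gene with long but unused exons has its level per kilobase understated.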

How the data were processed

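Expression was measured by strand-specific RNA-seq of total RNA in 10 libraries. Per the labels and the study's methods, the authors trimmed reads with Trimmomatic after FastQC 0.73, aligned them with HISAT2 2.2.1 to hg38, counted them per gene with featureCounts 2.0.3 on Gencode V41, and normalized them with DESeq2. The authors deposited, for each gene symbol and library, the log2 of a normalized count to which 1 had been added. How gene identifiers were merged into symbols, the strand setting and the contigs of the index are not given in the sources used here.

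Normalized counts were obtained by reversing the log2. Of all values, zeros included, 99.77% to 99.8% per library were whole reads divided by 1 size factor, within 0.1 reads. Genes with a normalized count of at least 10 in at least 3 libraries were tested with limma 3.58.1 (R 4.3.3), with an intensity trend and all 10 libraries in 1 fit, on the deposited log2 values. P-values were two-sided and adjusted by Benjamini-Hochberg over all 14839 genes. Intervals are 95% intervals of the fit. Fold changes are on the log2(normalized count + 1) scale, which understates changes of low genes. Tables were handled with Python 3.11.15, pandas 2.3.3, numpy 2.4.6 and scipy 1.17.1, and the fit was tested on simulated data.

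Groups were taken from the labels. The study's methods state that outlier samples were excluded. DMSO 16 and I-BET 762 24 had no values in the expression table and were not analysed here. Whether they were the outlier samples is not stated. Named genes were the strongest DEGs shared by both inhibitors, DEGs between the inhibitors, fixed anchors such as POLR2A and TBP, the member with the largest JQ1 change and the highest level per kilobase in each list, and paralog pairs. Other genes were named after their values were seen. The members, lists and tests were chosen with earlier results of these data known. Gene positions, exon lengths and overlaps came from Gencode V44 on hg38, and promoters from RefSeq. Alternatives covered the added count, the filter, the scaling, the fold threshold, the trend, the libraries in the fit, each library left out, and limma-voom on the recovered reads. The result of 1 gene among the elongation factors is not reported here.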

Additional observations from a re-analysis of the deposited data

Results flagged for a closer look

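For 6 of 66 named genes, 1 of the 4 JQ1 libraries stood apart from the other 3 by more than Dixon's 95% critical value for 4 values. Chance alone passes that value in about 1 in 20 independent groups. The genes were read in the same 4 libraries and are not independent, so that rate gives no expected count here. JQ1 18 was the high library for 5 of these 6 genes. GTF2B stood at 3773 normalized counts in JQ1 18 against 2944 to 3022 in the others. POLR2B stood at 20518 there against 16912 to 17124, and TAF7 at 7501 against 6316 to 6503. GTF2H2 stood at 223 against 180 to 185, and the histone chaperone gene SUPT16H at 31084 against 27864 to 27962. MED14 was low in JQ1 17, at 4456 against 4929 to 4982. JQ1 18 also had the highest total of normalized counts, and the part of that total in these values was not tested.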

How the results depend on the processing

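No paired analysis was possible because every library carries its own replicate number and no number is shared between groups. With equal totals, 11 genes rose and 12 fell with JQ1, against 8.24% and 28.4% of all genes. With I-BET 762, 6 rose and 8 fell, against 6.7% and 20.6%. In the direct comparison none was higher with JQ1 and 5 were lower, against 1.16% and 5.27% of all genes. The medians were -0.06, 0.01 and -0.06 for JQ1, I-BET 762 and the direct comparison. With equal upper quartiles the medians with JQ1 and I-BET 762 were 0.06 and 0.07. Without a fold threshold, 55 genes were higher and 27 lower with JQ1, 46 higher and 23 lower with I-BET 762, and 19 higher and 9 lower in the direct comparison. At a 2-fold threshold, 3 rose and 4 fell with JQ1, 1 rose and 1 fell with I-BET 762, and 1 was lower in the direct comparison. Of all genes, 5.34% rose and 14.6% fell with JQ1 at 2-fold, and 3.56% and 10.6% with I-BET 762. In the direct comparison, 0.478% of all genes were higher and 0.91% lower at 2-fold. The count of lower genes in the direct comparison was also 1 when every gene above 0 was tested, without the intensity trend, and without I-BET 762 22. Of all genes, 2.21%, 3.5% and 2.97% were lower in these 3 settings. Leaving out 1 library at a time gave a median with I-BET 762 of 0.09 to 0.13. The added counts of 0.5 and 5 changed none of 186 calls on 62 named genes, and no alternative reversed one. Of the 186, 85 kept their side of the threshold under every alternative that gave them a value, of 21 in all, where the filter on a mean of at least 100 gave one for 165. Without a fold threshold 69 of the 186 gained a call, and at a 2-fold threshold 26 lost one, both set by moving the threshold itself. For the other changes the cause was not tested. At group means of 19.2 to 32.7 normalized counts for POLR2J2 and 9.66 to 29.6 for TAF1A-AS1, a single library decided calls of both genes.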
